A study of Mus musculus with 8 samples.

Results

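Of 74207 peaks of accessible chromatin in macrophages grown from mouse bone marrow, 3708 had at least 50 RPKM, as deposited, in each of 8 ATAC-seq libraries. They were chosen by that level alone, in all 8 deposited columns, and are called the tall peaks here. They are 4.997% of the peaks and 9.61% of the bases in peaks. RPKM is the number of reads in a peak per kilobase of its length, scaled to the depth of the library. The levels that chose the tall peaks are given as a description, with no test.

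The libraries came from 2 wild-type (WT) C57Bl/6 mice. Each mouse gave a library of cells given fenoterol and then LPS, of cells given fenoterol, of cells given LPS, and of unstimulated cells, so each group holds n = 2 mice. Fenoterol, an agonist of the β2 adrenergic receptor, was given at a concentration of 1 µM and left on for 15 min. Toll-like receptor 4 senses the bacterial lipopolysaccharide LPS, of which cells received 100 ng/mL over 1 h. The groups with fenoterol therefore also differ in the time since it was added. The cells were grown from marrow in CMG medium with serum, and 50000 were used per library. The sources used here give neither age nor sex of the mice, and accessibility at macrophage marker genes was not analysed here.

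ATAC-seq uses the Tn5 transposase, which cuts DNA where nucleosomes and other proteins leave it free, so a tall peak marks DNA that is cut often in many cells of the sample. In mammalian cells, peaks of this kind that persist across conditions are known mostly from promoters of broadly expressed genes and from sites bound by the insulator protein CTCF. Regions that open on stimulation are more often distal enhancers, where factors such as NF-κB and AP-1 join the macrophage factor PU.1. Which of these classes a tall peak belongs to was not analysed here: positions are on build mm9, no genome or annotation of that build was used, and peaks are named as the deposited table names them.

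The lower end of the height of the tall peaks was set by the rule, and most had a mean under 75 RPKM. Their mean over the 8 libraries ran from 52.6 to 219.8 RPKM with a median of 71.3 RPKM, beside a median of 16.3 RPKM at the other 70499 peaks. A mean under 75 RPKM was held by 2211 of them, a mean of 75 to under 100 RPKM by 1166 and a mean of 100 RPKM or more by 331. In 165 the level reached 100 RPKM in every library. Height was not an all-or-none property of the peak set. While 64180 peaks were under 50 RPKM in every library, 6319 reached that level in 1 to 7 libraries, and 2233 peaks that are not tall peaks had a mean of at least 50 RPKM.

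Just inside the threshold was peak50397 at chr4:125936789-125937575, whose lowest value, with fenoterol + LPS in mouse 1, was barely above 50 RPKM and whose mean was 58.6 RPKM. Next above it came peak51605 at chr4:151235225-151235502 and peak71753 at chr9:110578888-110579595, with means of 58.5 and 61.2 RPKM. Just outside were peak47150 at chr3:148652052-148653250, peak48199 at chr4:43057560-43057902 and peak16755 at chr12:109513044-109514143, with means of 60.1, 58.1 and 57.0 RPKM. Peaks on either side of the threshold therefore had like means. The lowest value lay under 55 RPKM at 903 tall peaks, and between 45 and 50 RPKM at 1245 other peaks.

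The tallest region of the table was peak17218 at chr12:119539371-119541038, a peak of 1668 bp. It had 196 and 202 RPKM with fenoterol + LPS in mouse 1 and mouse 2, 219.9 and 193 RPKM with fenoterol, 221 and 205 RPKM with LPS, and 332 and 190.3 RPKM in unstimulated cells. Only the unstimulated library of mouse 1 stood apart there. The other 7 lay between 190.3 and 221 RPKM. The second was peak28120 at chr16:42874963-42876534, with 160 and 163 RPKM with fenoterol + LPS, 176 and 159.6 RPKM with fenoterol, 171 and 173 RPKM with LPS, and 234 and 155 RPKM in unstimulated cells. The next were peak63025 at chr7:112548318-112549227 and peak67592 at chr8:116158652-116159915, with means of 170.0 and 165 RPKM. The other 8 of the 12 tallest, peak49559, peak56, peak31485, peak68487, peak51606, peak56137, peak5329 and peak43235, had means of 151 to 160.3 RPKM. In each of these 12 the unstimulated library of mouse 1 held the highest value, and for none of them did any contrast below pass the threshold.

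That library stood apart across the tall peaks as a whole. Their median was 68.3 and 68.3 RPKM with fenoterol + LPS in mouse 1 and mouse 2, 73.5 and 69.5 RPKM with fenoterol, 72.0 and 70.3 RPKM with LPS, and 79.7 and 69.6 RPKM in unstimulated cells. The unstimulated library of mouse 1 held the highest of the 8 values at 2344 of the 3708 and the lowest at 123. The lowest value was most often that of fenoterol + LPS, in mouse 1 at 864 and in mouse 2 at 718. Tall peaks took 24.3% and 24.4% of the reads in peaks with fenoterol + LPS, 26.4% and 24.6% with fenoterol, 25.8% and 25.1% with LPS, and 29.1% and 24.6% in unstimulated cells.

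**Figure D1:**
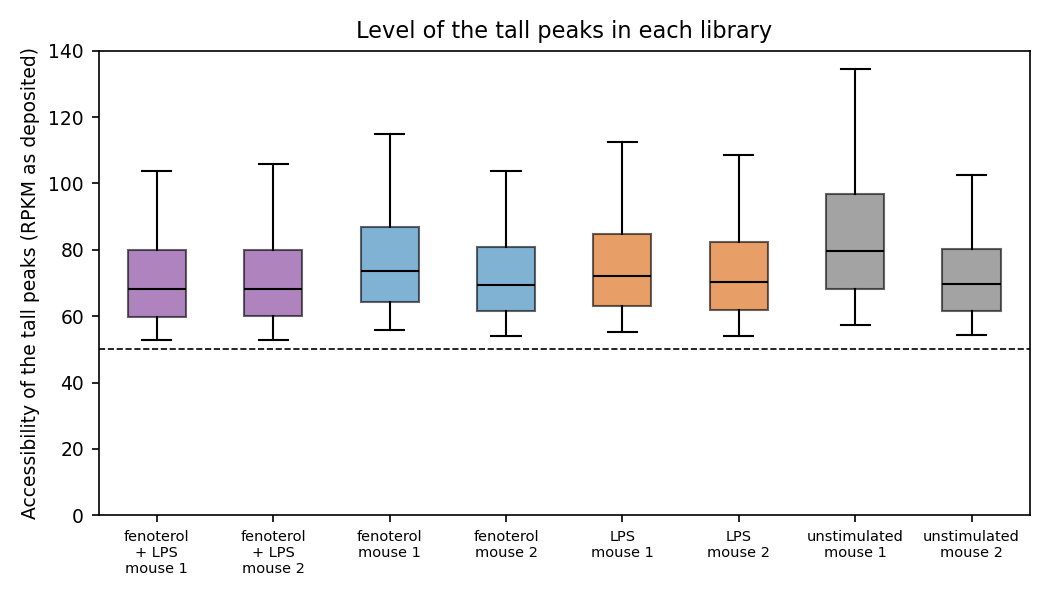
Accessibility of the 3708 tall peaks in RPKM as deposited (vertical axis), for each group and mouse; boxes span the 25th to 75th percentile over peaks, lines the median, whiskers the 5th to 95th percentile, and the dashed line the 50 RPKM that chose the peaks. Medians lie between 68.3 and 73.5 RPKM in 7 libraries and at 79.7 RPKM in the unstimulated library of mouse 1.

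The ratio between the mice shifted with height in 3 of the 4 groups. In unstimulated cells the median ratio of mouse 1 to mouse 2, of values scaled by size factors (below), was 0.777 at peaks with a mean under 10 RPKM, 0.994 at 20 to 30 RPKM and 1.08 at 30 to 50 RPKM. At tall peaks it was 1.22 below a mean of 75 RPKM, 1.32 from 75 to 100 RPKM and 1.46 above. With fenoterol the same bands of tall peaks had ratios of 1.08, 1.11 and 1.15. With LPS they had 1.03, 1.04 and 1.05, and with fenoterol + LPS 1.00, 0.999 and 0.990. The ratio thus climbed with height in 3 groups, most steeply in unstimulated cells, and not among the tall peaks with fenoterol + LPS.

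**Figure D2:**
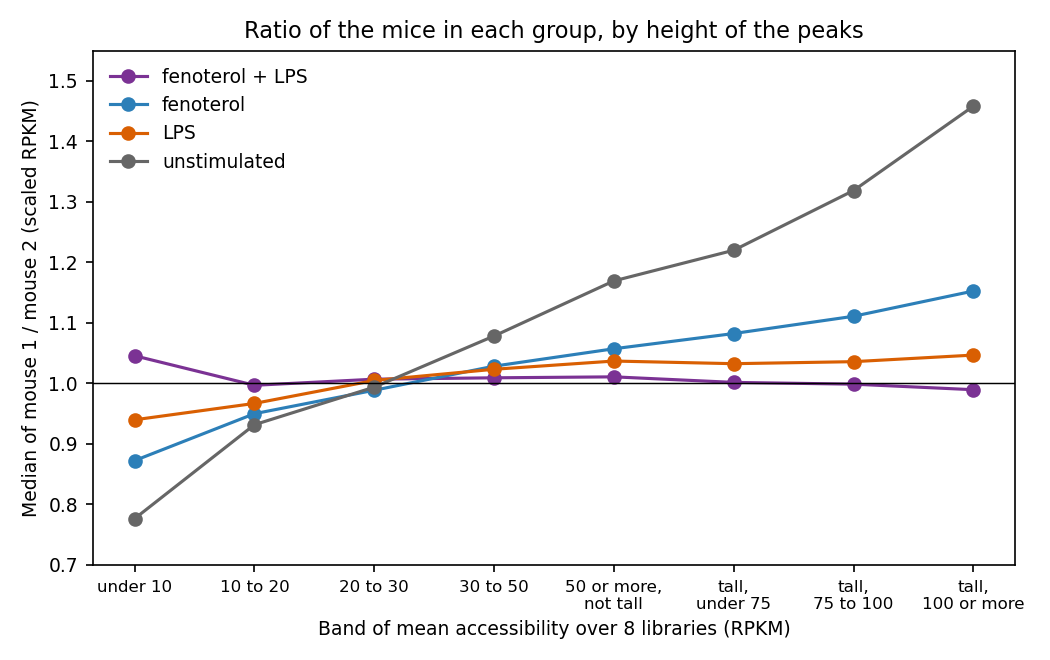
Median ratio of mouse 1 to mouse 2 in scaled RPKM (vertical axis) over bands of mean accessibility (horizontal axis, RPKM), 1 line per group. The line for unstimulated cells climbs from 0.777 in the lowest band to 1.46 at tall peaks of 100 RPKM or more, while that for fenoterol + LPS stays between 0.990 and 1.05.

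Lower depth went with higher medians in the shallowest libraries only. Reads in peaks, recovered from the RPKM, were 1426873 in the unstimulated library of mouse 1, with the highest median of the tall peaks. The next 2 in depth, fenoterol and LPS of mouse 1 at 3164446 and 3521741 reads, had the next highest medians. The other 5, at 3535300 to 4040292 reads, had medians of 68.3 to 70.3 RPKM. Among these 5 the order did not hold. The shallowest of them, fenoterol + LPS of mouse 2, had 68.3 RPKM, and the deepest, unstimulated cells of mouse 2, had 69.6 RPKM. Reads were densest at the tall peaks: the densest peak of a library held 473 reads per kb in that shallow library and 695 to 776 reads per kb in the other 7. The sources used here do not say whether duplicate reads had been removed, and the part of depth in the levels was not tested.

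Tall peaks were measured with many reads. In unstimulated cells the median tall peak held 101 reads in mouse 1 (exact 95% Poisson limits 82.3 and 123) and 248 reads in mouse 2 (limits 218 and 281). The smallest count at any tall peak was 20 reads in the first of these libraries and 45 to 56 in the other 7. The intervals cover counting error only. At tall peaks the mice of a group lay closer to each other than independent counting gives in 3 groups. The chi-square of the recovered reads over its degrees of freedom, which is near 1 for independent counts, was 0.685 with fenoterol + LPS, 0.864 with fenoterol, 0.594 with LPS and 1.29 in unstimulated cells. At tall peaks of 100 RPKM or more it was 0.610, 0.649, 0.523 and 1.41 in the same groups, and at other peaks of 20 to 30 RPKM 0.896, 1.02, 0.860 and 0.957. At peaks with a mean of at least 50 RPKM that are not tall peaks it was 0.890, 1.06, 0.757 and 0.984. The rule leaves out peaks that dip under 50 RPKM in any library, which can by itself narrow the spread at those kept. Values under 1 were not limited to such pairs. The unstimulated and fenoterol libraries of mouse 2 gave 0.675, and LPS and fenoterol + LPS libraries of different mice gave 0.769 and 0.844. The labels give separate mice, and the mice of a group were kept as separate samples.

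Levels of the tall peaks kept their order between libraries. Over the 3708 peaks, which are not independent replicates and share peak length and local base composition, log2 levels of the mice of a group correlated with Pearson's r of 0.875 to 0.939. Libraries of different groups with the same LPS state had r of 0.868 to 0.928, and libraries with against libraries without LPS had r of 0.796 to 0.851. The lowest of the same-group and same-state values are pairs with the unstimulated library of mouse 1. Over all tested peaks r was 0.863 to 0.905 for the mice of a group and 0.853 to 0.911 for other libraries with the same LPS state. It was 0.699 to 0.794 for libraries with against libraries without LPS. The SD of the log2 difference between the mice was 0.103 to 0.182 at tall peaks and 0.316 to 0.465 at all tested peaks. The parts of read counts and of the rule in this difference were not tested.

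Tall peaks were also wide. Their median width was 867.5 bp, from 215 to 2617 bp, beside 396 bp at the other peaks. Width climbed over all bands of mean height, with medians of 288 bp under 10 RPKM, 572 bp at 30 to 50 RPKM and 675 bp at the 2233 peaks of at least 50 RPKM that are not tall peaks. A width of at least 500 bp was held by 95.3% of them and by 27.8% of the other peaks. At least 1000 bp was held by 1215 tall peaks, 32.8%, and by 2.84% of the others. The share of peaks that are tall climbed with width, from 10 of 17023 below 300 bp (0.0587%) through 988 of 7885 at 600 to under 800 bp (12.5%) to 122 of 251 at 1500 bp or more (48.6%). Among the tall peaks width and height went together loosely, with a Spearman correlation of 0.176 over peaks, against 0.610 among the others. RPKM is divided by length, so width entered the rule, and a narrow margin drawn by the peak caller raises the RPKM of a peak; these values are a description.

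The widest tall peak, peak54341 at chr5:109985723-109988339, also was the widest in the table. It had 133 and 137 RPKM with fenoterol + LPS, 144 and 129 RPKM with fenoterol, 145 and 136 RPKM with LPS, and 156 and 125 RPKM in unstimulated cells. The next, peak156 at chr1:13362349-13364713 with 2365 bp, averaged 61.7 RPKM. The narrowest, peak30029 at chr17:21081245-21081459, averaged 76.0 RPKM over 215 bp, and peak62956 at chr7:109395537-109395765 averaged 70.7 RPKM over 229 bp. The 2 narrowest tall peaks thus had higher means than the second widest.

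**Figure D3:**
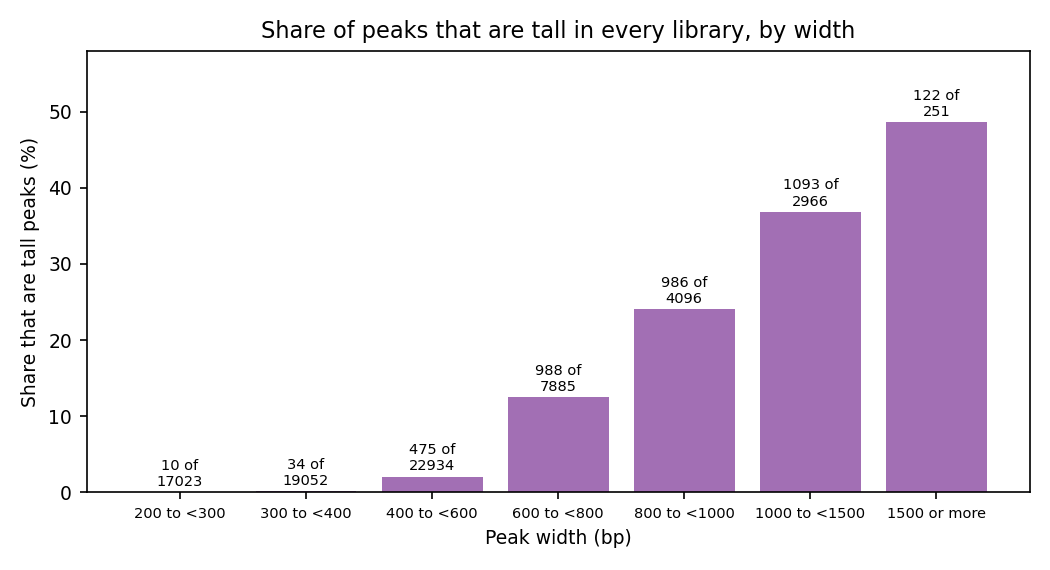
Share of peaks that are tall in every library (vertical axis, percent) by peak width (horizontal axis, bp); the numbers above the bars are tall peaks of all peaks in the bin. The share is 0.0587% below 300 bp and 48.6% at 1500 bp or more.

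The tall peaks were spread over all 21 chromosomes. They made up 3.38% of the peaks on chromosome X (59 of 1743), 3.50% on chromosome 19 and 3.82% on chromosome 11, and 6.22% and 6.35% on chromosomes 7 and 8. Chromosome Y held 5 among its 69 peaks. Median height differed little, at 67.2 RPKM on chromosome X, 75.2 RPKM on chromosome 12 and 67.8 to 72.6 RPKM on the others. Local peak density was like that of other peaks. A median of 3 further peaks lay within 25 kb of a tall peak and of another peak alike, with means of 3.49 and 3.43, and the nearest peak lay 5.88 kb from a tall peak and 5.35 kb from another peak in the median, measured between centres. Another tall peak lay within 10 kb of 558 tall peaks (15.0%), whereas a tall peak lay within 10 kb of 4097 of the other peaks (5.81%).

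Values at a tall peak changed little over the 8 libraries. The highest library exceeded the lowest 1.31-fold in the median, 1.58-fold at the 95th percentile and 2.32-fold at most. At other peaks the median was 2.17-fold. Without the unstimulated library of mouse 1 the median was 1.21-fold at tall peaks and 1.97-fold at the others. A ratio of at least 1.5 was seen at 396 tall peaks, and at 132 without that library; a ratio of at least 2 was seen at 4, and at 3 without it. The rule keeps only peaks that stay at or above 50 RPKM throughout and so leaves out peaks that fall or start below it, which by itself makes ratios small.

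The steadiest of all was peak55169 at chr5:130647252-130648587. It had 71.1 and 74.6 RPKM with fenoterol + LPS, 70.5 and 73.4 RPKM with fenoterol, 74.2 and 74.1 RPKM with LPS, and 70.4 and 70.5 RPKM in unstimulated cells, a ratio of 1.06. A like ratio of 1.06 was found at peak28606 at chr16:58498399-58498950, which lay between 97.3 and 103 RPKM. At peak71877 (chr9:114309782-114310890) and peak66812 (chr8:87823152-87823960) the ratio was 1.07, with means of 66.6 and 56.3 RPKM.

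At the other end, the 4 most variable tall peaks include peak23364 and peak6328, higher in all 4 libraries with LPS, and peak53865, highest in the 2 libraries with fenoterol alone. These 3 are described below with their tests. The fourth, peak13457 at chr11:110027095-110027773, had 63.2 and 51.7 RPKM with fenoterol + LPS, 82.0 and 69.5 RPKM with fenoterol, 64.5 and 63.7 RPKM with LPS, and 117 and 62.1 RPKM in unstimulated cells. Its ratio of 2.26 rested on the unstimulated library of mouse 1.

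The first comparison asked where LPS changed the tall peaks in cells without fenoterol. By limma-trend over all 66786 peaks tested, with a Benjamini-Hochberg adjusted p under 0.05, 25 tall peaks rose and 28 fell, together 53 or 1.43% of the 3708. Of all tested peaks 10.1% passed, 6.53% rising and 3.54% falling. Among the 2233 peaks with a mean of at least 50 RPKM that are not tall peaks, 15.0% passed. The low share at tall peaks is in part built into the rule, which removed peaks that LPS brought up from, or down to, less than 50 RPKM. The tall peaks that rose changed 1.35- to 1.94-fold and those that fell to 0.653- to 0.739-fold of the unstimulated level. All 53 moved the same way in both mice, and their means lay between 61.6 and 96.7 RPKM. None of the 331 peaks of 100 RPKM or more was thus among them. The SE of the log2 change was larger at the 12 tallest peaks, at 0.21 to 0.27. It was 0.14 to 0.16 at the 5 risen and 5 fallen peaks with the smallest p. Each SE takes in the spread between the unstimulated mice, and its part in the missing calls was not tested.

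The largest rise with LPS was at peak23364, chr14:103457564-103458676, a peak of 1113 bp. It had 119.5 and 123 RPKM with LPS and 65.6 and 53.2 RPKM in unstimulated cells, mouse 1 first. Both LPS values lay well above both unstimulated ones (log2 change 0.96, SE 0.16, adjusted p = 0.000518). The next by p was peak6328 at chr10:37057908-37058673, with 125 and 118 RPKM with LPS and 68.8 and 67.0 RPKM in unstimulated cells (log2 change 0.77, SE 0.15, adjusted p = 0.00171). On chromosome 8, peak66790 at chr8:87500032-87500711 had 97.0 and 100.0 RPKM with LPS and 54.8 and 59.8 RPKM in unstimulated cells (log2 change 0.71, adjusted p = 0.00202). Its neighbour peak66791 at chr8:87502266-87502867 is a tall peak as well, with 96.4 and 99.7 RPKM with LPS and 58.4 and 65.9 RPKM in unstimulated cells. This pair of adjoining tall peaks thus rose side by side (log2 change 0.59, adjusted p = 0.00777 at peak66791, the fifth by p). The fourth by p was peak4437 at chr1:175982980-175983703, with 94.3 and 91.3 RPKM with LPS and 52.4 and 57.9 RPKM in unstimulated cells (adjusted p = 0.00364).

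Among the tall peaks that fell with LPS, the smallest adjusted p was at peak32232, chr17:84587080-84588283, with 65.1 and 58.3 RPKM with LPS and 99.1 and 89.3 RPKM in unstimulated cells (log2 change -0.61, SE 0.14, adjusted p = 0.00851). At peak41597, chr2:144073016-144073611, the values were 54.4 and 56.8 RPKM with LPS and 90.8 and 78.2 RPKM in unstimulated cells (log2 change -0.60, adjusted p = 0.0105). At peak64464, chr7:147160048-147160663, they were 67.9 and 68.4 RPKM with LPS and 103 and 99.8 RPKM in unstimulated cells (adjusted p = 0.0109). No library of the LPS group reached the unstimulated range at any of these 3. Likewise peak65009 (chr8:11767341-11767971) had 50.9 and 58.9 RPKM with LPS and 86.9 and 77.4 RPKM in unstimulated cells (adjusted p = 0.0111). The last of the 5, peak35229 at chr19:5846432-5846926, had 54.6 and 57.9 RPKM with LPS and 90.9 and 80.2 RPKM in unstimulated cells (adjusted p = 0.0114). Tall peaks that fell were narrower in the median, at 635 bp, than those that rose, at 724 bp, and both were narrower than the 867.5 bp of all tall peaks.

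The count of 53 turned on scaling and on single libraries. The median log2 change of all 3708 was -0.11, with -0.25 in mouse 1 and 0.04 in mouse 2, beside -0.03 over all tested peaks. Cyclic loess, which removes differences that depend on height, moved the median to -0.01 and called 160 tall peaks higher and 120 lower, the 53 among them (10.2% of all tested peaks). Size factors taken from the tall peaks alone called 119 higher and 67 lower (7.24% of all). Without the unstimulated library of mouse 1, 103 were higher and 20 lower with a median of 0.07 (7.17% of all). Without that of mouse 2, 32 were higher and 1313 lower with a median of -0.28 (18.7% of all). Leaving out the LPS library of mouse 1 or mouse 2 gave 2 calls each (4.21% and 3.11% of all), and leaving out the fenoterol + LPS library of mouse 1 or mouse 2 gave 28 each (8.19% and 8.21% of all). With the mouse as a block 32 were higher and 72 lower (11.2% of all).

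LPS was also compared in cells that had first been given fenoterol. The groups compared here also differ in the time since fenoterol was added, and the part of that time in the changes was not tested. Fenoterol + LPS against fenoterol gave 35 tall peaks that rose and 36 that fell, 71 or 1.91%, where 13.7% of all tested peaks passed, 9.43% rising and 4.32% falling. The group means share no library with those of the first comparison, although the spread of each peak came from all 8 libraries in both. Of the 25 risen with LPS alone, 16 rose with fenoterol present, which is 64% of the first list and 45.7% of the second. Of the 28 that fell 9 also fell, 32.1% and 25% of the lists. None was called in opposite directions. The overlap over all tested peaks was not analysed here, so these shares are not shown to be particular to tall peaks.

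The smallest adjusted p here was at peak6328, with 124 and 125 RPKM with fenoterol + LPS and 62.4 and 60.6 RPKM with fenoterol (log2 change 0.99, SE 0.15, adjusted p = 0.000116). Together with the LPS values above, its 4 libraries with LPS lay between 118 and 125 RPKM and its 4 without between 60.6 and 68.8 RPKM. At peak23364 the values were 102 and 122 RPKM with fenoterol + LPS and 61.1 and 63.0 RPKM with fenoterol (log2 change 0.82, adjusted p = 0.00136). At peak30023, chr17:18037570-18038269, they were 98.2 and 87.4 RPKM with fenoterol + LPS and 57.0 and 50.7 RPKM with fenoterol (adjusted p = 0.00202). Further rises were found at peak51353 (chr4:144857404-144858169), with 118 and 126 RPKM with fenoterol + LPS and 74.8 and 76.3 RPKM with fenoterol, and at peak71694 (chr9:108961492-108962420), with 104 and 109 RPKM with fenoterol + LPS and 68.8 and 67.2 RPKM with fenoterol. All 5 also passed the threshold for LPS against unstimulated cells.

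Among the falls, peak35229 had 63.0 and 52.7 RPKM with fenoterol + LPS and 97.9 and 96.0 RPKM with fenoterol (log2 change -0.70, SE 0.15, adjusted p = 0.00287). At peak32232 the values were 57.1 and 56.9 RPKM with fenoterol + LPS and 90.9 and 93.4 RPKM with fenoterol (log2 change -0.64, adjusted p = 0.00433). Both peaks were thus lower in the libraries with LPS in either fenoterol state. At peak5185, chr1:195027419-195028098, they were 57.9 and 56.7 RPKM with fenoterol + LPS and 99.6 and 85.1 RPKM with fenoterol. At peak51297, chr4:144493761-144494396, they were 63.5 and 59.2 RPKM with fenoterol + LPS and 96.1 and 99.4 RPKM with fenoterol. By limma-trend, peak5185 and peak51297 had also fallen with LPS against unstimulated cells (adjusted p = 0.0139 and 0.0498). The smallest adjusted p among the falls, 0.00181, was at peak49923, chr4:114725113-114725632, which differed from these in its unstimulated level. It had 50.6 and 52.9 RPKM with fenoterol + LPS, 94.4 and 81.1 RPKM with fenoterol, 67.8 and 60.4 RPKM with LPS, and 64.9 and 69.2 RPKM in unstimulated cells, so that the fenoterol libraries lay above all the others.

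**Figure D4:**
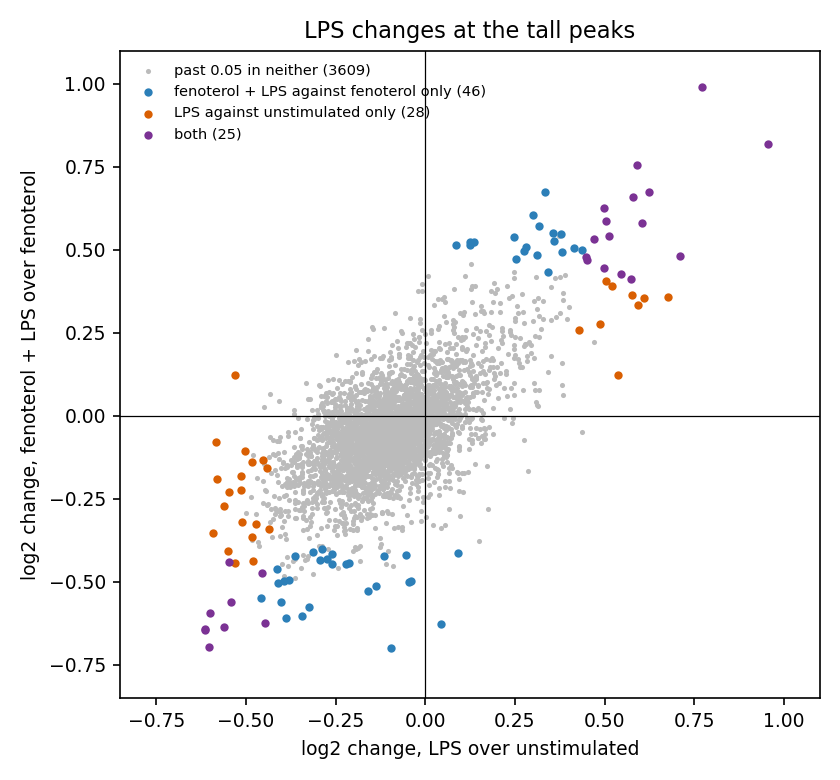
Each point is 1 of the 3708 tall peaks, with its log2 change for LPS over unstimulated cells (horizontal axis) and for fenoterol + LPS over fenoterol (vertical axis); colours mark adjusted p under 0.05 in both comparisons (25 peaks), in one of them (28 and 46) or in neither (3609). Peaks called in both lie in the lower left and upper right corners.

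For fenoterol + LPS against fenoterol the median log2 change of the tall peaks was -0.05, and it was the same without either unstimulated library. The unstimulated and LPS libraries entered this comparison only through the shared spread of each peak. The count of 71 also moved with each library. It was 296 and 293 without the unstimulated library of mouse 1 or mouse 2 (18.9% and 18.8% of all tested peaks), and 40 and 41 without the LPS libraries (12% of all each). It was 6 and 21 without the fenoterol libraries (5.59% and 9.78% of all), and 6 and 4 without the fenoterol + LPS libraries (6.27% and 6.1% of all). Cyclic loess gave 177 higher and 128 lower (14.2% of all), size factors from the tall peaks alone 148 higher and 94 lower (10.9% of all), and the mouse as a block 54 higher and 67 lower (14.8% of all).

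Peaks around the tall peaks were then described. Of 3922 tested peaks that are not tall but have a tall peak within 10 kb, 12.3% rose with LPS and 5.89% fell, against 6.52% and 3.56% of 59156 tested peaks with no tall peak so near. With fenoterol present, 16.1% and 7.50% of the nearby peaks rose and fell, against 9.51% and 4.31% of the distant ones. The nearby peaks were taller, with a median mean of 28.7 RPKM against 17.3 RPKM, and the part of their height in these shares was not tested. Around the 25 tall peaks that rose with LPS, 26 of 55 such neighbours rose (47.3%) and 3 fell. Around the 28 that fell, 10 of 43 neighbours fell (23.3%) and 3 rose. With fenoterol present, 26 of 61 neighbours of the 35 risen tall peaks rose, and 17 of 68 neighbours of the 36 fallen ones fell. Neighbours and tall peaks were measured in the same libraries, and these shares carry no test.

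Fenoterol alone for 15 min was then set against unstimulated cells. No tall peak passed by limma-trend (0 of 3708, with 55 at an unadjusted p under 0.05), where 0.00749% of all tested peaks passed, which is 5 peaks. The smallest adjusted p, 0.14, was at peak53865, chr5:98462010-98462480. It had 108 and 91.3 RPKM with fenoterol and 56.7 and 51.6 RPKM in unstimulated cells, and 64.1 and 60.2 RPKM with fenoterol + LPS and 61.0 and 53.8 RPKM with LPS. Its fenoterol libraries lay above the other 6, with a log2 difference of 0.77 (SE 0.15) from unstimulated cells. It passed under 12 of 23 alternatives, with an adjusted p of 0.000542 by cyclic loess, 0.00373 by voom on recovered reads and 0.0369 with the mouse as a block; over all 23 the value ran from 5.47e-06 to 0.921. For fenoterol + LPS against fenoterol it passed (adjusted p = 0.00614).

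A like pattern was seen at peak55796, chr5:145044199-145044976, with 88.3 and 80.2 RPKM with fenoterol and 55.1 and 55.1 RPKM in unstimulated cells (log2 difference 0.53, adjusted p = 0.402). This peak did not pass under 16 of 23 alternatives and passed under the others. Its libraries with LPS lay between 50.2 and 59.9 RPKM. In the other direction, peak4263 at chr1:173152416-173153118 had 53.1 and 59.2 RPKM with fenoterol and 82.0 and 81.4 RPKM in unstimulated cells (log2 difference -0.56, adjusted p = 0.314). It had fallen with LPS, to 58.2 and 55.2 RPKM (adjusted p = 0.0139), and stood at 59.6 and 62.1 RPKM with fenoterol + LPS, so each treated group lay below the unstimulated one. At peak3027, chr1:140032875-140033446, the values were 63.1 and 54.1 RPKM with fenoterol and 92.2 and 72.0 RPKM in unstimulated cells (adjusted p = 0.469). The median log2 difference of the tall peaks was -0.12, with -0.22 in mouse 1 and -0.01 in mouse 2; it was 0.05 without the unstimulated library of mouse 1 and -0.00451 by cyclic loess. Voom called 1 tall peak (0.0464% of all tested peaks) and cyclic loess 7 (0.0389% of all), all higher. Without the unstimulated library of mouse 2 limma-trend called 3 higher and 825 lower (5.32% of all), with the shallow library as the lone unstimulated one. Without that of mouse 1 it called 1 (0.012% of all).

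**Figure D5:**
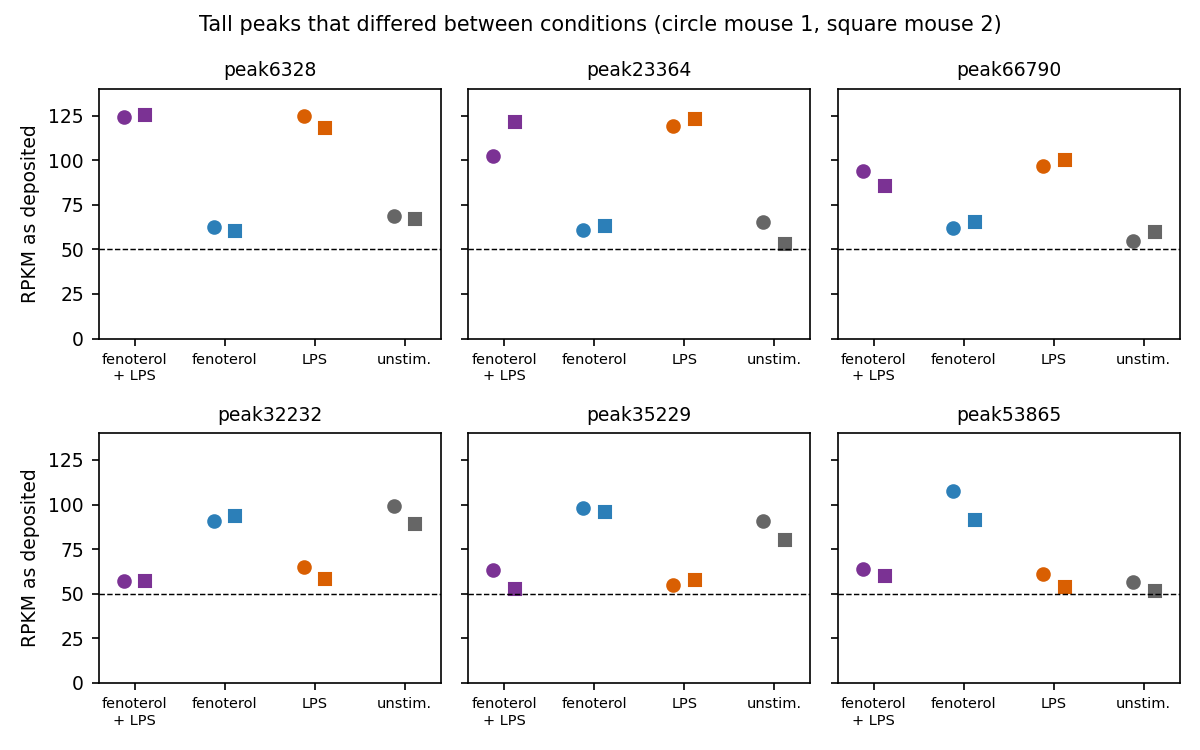
Accessibility in RPKM as deposited (vertical axis, from 0) of 6 tall peaks in the 4 groups, with circles for mouse 1 and squares for mouse 2 and a dashed line at 50 RPKM. The peaks peak6328, peak23364 and peak66790 are higher in the groups with LPS, peak32232 and peak35229 are lower there, and peak53865 is highest with fenoterol alone.

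Adding fenoterol before LPS was compared with LPS alone. No tall peak passed by limma-trend (0 of 3708, with 20 at an unadjusted p under 0.05 and a smallest adjusted p of 0.462), as none of all tested peaks did (0%). Voom likewise called 0 tall peaks, where it called 0.596% of all. The lowest p among the higher ones was at peak63392, chr7:121459843-121460377, with 79.8 and 67.3 RPKM with fenoterol + LPS and 59.0 and 53.5 RPKM with LPS (adjusted p = 0.693), followed by peak31891, chr17:75598780-75599458, with 84.7 and 76.3 RPKM with fenoterol + LPS and 67.8 and 56.4 RPKM with LPS. Among the lower ones it was at peak43506, chr3:20030268-20030996, with 62.1 and 50.1 RPKM with fenoterol + LPS and 82.3 and 76.7 RPKM with LPS (log2 difference -0.48, SE 0.14, adjusted p = 0.462). Next came peak35976, chr19:26681591-26682114, with 55.1 and 51.4 RPKM with fenoterol + LPS and 68.4 and 74.6 RPKM with LPS. These 4 peaks were picked from the 3708 for the smallest p in each direction, and none passed the threshold. The median log2 difference of the tall peaks was -0.07, with -0.09 in mouse 1 and -0.04 in mouse 2, and 2006 of 3708 were lower in both mice against 412 higher in both. Over all tested peaks 29.2% were lower in both mice and 29.0% higher, beside 54.1% and 11.1% of the tall peaks. The median was -0.00486 by cyclic loess and 0.000198 with size factors from the tall peaks alone.

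The interaction set the change from fenoterol to fenoterol + LPS against that from unstimulated cells to LPS. The former also holds the difference in time since fenoterol was added. No tall peak passed by limma-trend (0 of 3708, with 15 at an unadjusted p under 0.05 and a smallest adjusted p of 0.62), nor did any of all tested peaks (0%), and voom called 0 tall peaks (0.00599% of all). The LPS changes of a tall peak in the fenoterol states are therefore not shown to differ where only one of them passed. The smallest p in each direction were those of peak4263 (interaction 0.65 on the log2 scale, SE 0.19) and peak53865 (-0.67, SE 0.21, adjusted p = 0.656). They were followed by peak65009 (0.50, adjusted p = 0.743) and peak49923 (-0.61, adjusted p = 0.664). Without the unstimulated library of mouse 2, 15 tall peaks passed, all with the higher change in cells given fenoterol (0.416% of all).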

How the data were processed

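ATAC-seq libraries of 8 samples were analysed from 1 table that the authors deposited, with 1 RPKM value per peak and library over a peak set shared by all. Cutadapt, Bowtie2, MACS2 and HOMER are named, with build mm9, per the submitters' processing notes. The sources used here give no versions and do not say whether duplicates were removed, reads shifted for Tn5 or samples pooled to call peaks. Multiplied by peak length, 100% of values came within 0.01 of whole multiples of 1 step per library, so reads were recovered, and RPKM is relative to reads in peaks; a shift common to all peaks cannot be seen. Depth was 1426873 to 4040292 reads in peaks.

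Members were taken from the values as deposited. They, the lists and the tests were chosen with earlier results of these data known. For tests, RPKM was divided by median-ratio size factors (0.9401 to 1.037), 4 was added and log2 taken. Fold changes of the comparisons between groups therefore refer to log2(value + 4). Ratios of the highest to the lowest library used RPKM as deposited, and ratios between the mice used scaled RPKM, with nothing added. The lowest 10% of peaks by mean were left out (7421), which removed no tall peak, and the other 66786 entered 1 limma-trend fit (R 4.3.3, limma 3.58.1; 4 group means, 4 residual and 16.4 prior degrees of freedom, Benjamini-Hochberg over all tested peaks). The spread rests on 2 mice per group. The script was tested on simulated data. A peak "rose" or "fell" where its adjusted p was under 0.05.

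Mouse numbers pair libraries of the same animal per the labels. Deviations of same-numbered libraries correlated at 0.0764 to 0.288 over tall peaks and at 0.0231 to 0.0727 over all tested peaks. The value of 0.288 is that of the fenoterol and unstimulated libraries. Peaks named are the 12 tallest, the 3 nearest the threshold on each side, up to 5 per contrast and direction with the smallest adjusted p and the same direction in both mice (2 where none passed), the 4 steadiest and 4 most variable, and the 2 widest and narrowest. Alternatives covered scaling, pseudocount, filter, trend, voom, the block, the threshold and each library left out.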

Additional observations from a re-analysis of the deposited data

How the results depend on the processing

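Each of the named tall peaks kept its direction, in the contrast that named it, under all 23 alternatives. Its call could be lost without a mean trend or without a library of the contrast. The counts were less stable, and a lone library left in a group is assumed to vary like the others. In brackets stands the share of all tested peaks called under the same setting. Where a range of counts is given, the bracket holds the lowest and highest share over those settings, which need not be the settings of the lowest and highest count. For LPS against unstimulated cells, 53 calls (10.1%) became 121 (9.78%) on values as deposited, 281 (10.4%) by quantile normalization, 280 (10.2%) by cyclic loess, 186 (7.24%) with size factors from the tall peaks alone, 104 (11.8%) by voom, 104 (11.2%) with the mouse as replicate block and 3 (5.86%) without a mean trend. Leaving out 1 library gave 2 to 1345 (3.11% to 18.7%). For fenoterol + LPS against fenoterol, 71 (13.7%) became 156 (13.7%), 392 (17%), 305 (14.2%), 242 (10.9%), 143 (19.2%), 121 (14.8%) and 10 (9.92%) under the same settings, and 4 to 296 (5.59% to 18.9%) without 1 library. For fenoterol against unstimulated cells, 0 (0.00749%) became 1 (0.015%), 9 (0.0449%), 7 (0.0389%), 4 (0.0225%), 1 (0.0464%), 1 (0.012%) and 0 (0%), and 0 to 828 (0% to 5.32%) without 1 library. For fenoterol + LPS against LPS no planned setting called a tall peak, and without 1 library the count was 0 throughout (0% to 0.0344%). The interaction gave 0 to 15 (0% to 0.416%) without 1 library and 0 otherwise among planned settings.

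Settings chosen after seeing the data added cyclic loess to others. In the 5 tests in the order above, voom with cyclic loess called 334 (12.8%), 448 (20.6%), 10 (0.115%), 8 (0.819%) and 0 (0.027%) tall peaks. Cyclic loess with the replicate block called 339 (10.7%), 354 (14.8%), 8 (0.0404%), 0 (0%) and 0 (0%). Cyclic loess without the unstimulated library of mouse 1 called 193 (7.38%), 452 (18.9%), 4 (0.018%), 1 (0.0299%) and 0 (0%), and without that of mouse 2 458 (14.7%), 453 (18.9%), 85 (2.14%), 0 (0.0135%) and 12 (0.293%). A threshold of 40, 75 or 100 RPKM gave 6536, 834 and 165 tall peaks. Of these 211, 1 and 0 were called with LPS and 242, 1 and 0 with fenoterol + LPS against fenoterol. The fit was the main one at each threshold, with 10.1% and 13.7% of all tested peaks called in these tests. Each threshold also bounds how low a tall peak can be in any library. Values scaled by size factors gave 3555 tall peaks, and 7 libraries 3756 to 3843. The cause of these shifts was not tested. Depth in the unstimulated group was 1426873 reads in peaks for mouse 1 and 4040292 for mouse 2.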
